A study of Mus musculus with 8 samples.

Results

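The genes described here are 9 cell fusion genes of osteoclast precursors: Dcstamp, Ocstamp, Tm4sf19, Cd9, Cd81, Cd47, Sirpa, Adam8 and Cd44. They were chosen by name, as membrane proteins with a known part in the fusion of macrophages or osteoclast precursors, and the rule uses no expression value. The choice was made with earlier results of these data known. All 9 were found by symbol among the 25124 genes of the table. All 9 also passed the filter on low values, a mean of at least 0.5 FPKM over the 8 libraries, which left 11700 genes to test. FPKM is a count of fragments divided by transcript length and by library depth, so levels of different genes can be compared on it. Ocstamp passed this filter only through the groups that received RANKL.

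Osteoclasts, the cells that resorb bone, form when mononuclear precursors of the macrophage lineage meet RANKL and fuse into cells with many nuclei. Fusion needs multi-pass proteins of the surface that RANKL induces (DC-STAMP and OC-STAMP). Adhesion and recognition molecules that macrophages already carry promote or restrain it, such as tetraspanins, the CD47 and SIRPα pair, ADAM proteases and CD44. The tetraspanins CD9 and CD81 arrange other proteins within the membrane, and CD47 is the ligand of SIRPα, an inhibitory receptor of myeloid cells.

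The study asked how extracellular peroxiredoxin 1 (PRDX1), an antioxidant enzyme that can also be released from cells, alters the response of osteoclast precursors to RANKL. RNA was isolated as total RNA and sequenced from 4 groups of 2 libraries each: no PRDX1 + no RANKL, PRDX1 + no RANKL, no PRDX1 + RANKL, and PRDX1 + RANKL. Per the labels, precursors were adherent bone marrow cells of C57BL/6 mice aged 6 to 8 weeks, expanded for 3 days in M-CSF at 30 ng/ml (the study's methods name male ICR mice for its cell cultures). The group with neither ligand is labelled as cultured with M-CSF, and the labels of the other groups name only RANKL or PRDX1. RANKL was given at 100 ng/ml and PRDX1 at 200 nM, alone or together, for 48 hours. PRDX1 was a His-tagged recombinant protein made in Escherichia coli, with a step to remove endotoxin, and no group received another recombinant protein in its place. Nothing in the labels says that 2 libraries of a group came from separate mice or cultures, so p-values measure only the spread between these libraries.

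The libraries held 24542578 to 41712973 reads on genes. The 6 macrophage markers (Csf1r, Adgre1, Cd68, Itgam, Lyz2 and Fcgr1) were detected in every library, with a summed level of 15242 to 16996 FPKM with neither ligand, 16118 to 16574 FPKM with PRDX1 alone, 13090 to 13483 FPKM with both and 9705 to 10128 FPKM with RANKL alone. The 6 osteoclast markers (Acp5, Ctsk, Calcr, Mmp9, Oscar and Car2) summed to 23.8 to 24.6 FPKM with neither ligand, 55.0 to 55.1 FPKM with PRDX1 alone, 198 to 206 FPKM with both and 1579 to 1695 FPKM with RANKL alone. Lyz2, at 8326 to 14982 FPKM over the libraries, made up most of the macrophage sum, and Fcgr1 ranged from 7.90 to 163 FPKM. With neither ligand, Acp5 made up most of the osteoclast sum, and the other 5 markers were under 1 FPKM. The T cell marker Cd3e was at 0 in all 8 libraries. Summed levels reached at most 1.28 FPKM for B cell, 0.161 FPKM for T cell, 3.70 FPKM for dendritic cell and 5.54 FPKM for endothelial markers. Dendritic cell markers summed to 0.459 to 0.489 FPKM with neither ligand and 2.8 to 3.7 FPKM with both. Endothelial markers summed to 1.82 FPKM with neither ligand and 5.16 to 5.54 FPKM with both. With 1 ligand alone the dendritic cell and endothelial sums lay between these. The 5 neutrophil markers were higher in the PRDX1 groups, at 37.9 to 41.5 FPKM with PRDX1 alone and 32.9 to 35.5 FPKM with both, against 7.38 to 11.5 FPKM with neither and 15.3 to 15.7 FPKM with RANKL alone, most of it from S100a8 and S100a9, while Ly6g stayed at or under 0.279 FPKM. The 5 stromal markers summed to 15.3 to 19.0 FPKM in the PRDX1 groups and 7.48 to 10.4 FPKM in the others. The part of these cells in the results below was not tested. In bulk libraries, fewer cells of a type and less RNA per cell cannot be told apart.

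The DNA just upstream of the start is shown for 3 members with different responses: Tm4sf19, which was induced by RANKL, Cd81, which was lower in every treated group, and Cd44, which varied little. Each sequence is the 250 bases before the RefSeq start (GRCm38.p6), read 5′ to 3′ on the strand of the gene. It lies at chr16:32400256-32400505 on the plus strand for Tm4sf19, at chr7:143052500-143052749 on the plus strand for Cd81 and at chr2:102901666-102901915 on the minus strand for Cd44. Capitals mark a GGAAAA.
Tm4sf19: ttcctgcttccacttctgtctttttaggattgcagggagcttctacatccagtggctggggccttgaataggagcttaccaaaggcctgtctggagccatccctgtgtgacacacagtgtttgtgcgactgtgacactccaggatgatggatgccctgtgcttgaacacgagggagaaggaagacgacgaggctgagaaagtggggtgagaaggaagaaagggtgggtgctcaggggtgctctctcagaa
Cd81: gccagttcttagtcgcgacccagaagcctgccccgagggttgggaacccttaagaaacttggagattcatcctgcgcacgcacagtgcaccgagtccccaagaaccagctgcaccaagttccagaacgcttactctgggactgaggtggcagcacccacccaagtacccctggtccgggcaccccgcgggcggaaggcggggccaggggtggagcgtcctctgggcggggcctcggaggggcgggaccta
Cd44: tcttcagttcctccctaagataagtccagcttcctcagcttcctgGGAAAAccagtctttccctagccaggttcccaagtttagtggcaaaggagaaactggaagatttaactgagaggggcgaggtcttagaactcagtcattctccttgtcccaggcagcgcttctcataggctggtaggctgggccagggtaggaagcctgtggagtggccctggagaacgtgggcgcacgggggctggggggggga
The GC content of these stretches was 53.6% for Tm4sf19, 65.6% for Cd81 and 56.4% for Cd44. The RefSeq promoter table held 6 of the 9 members (Tm4sf19, Cd9, Cd81, Cd47, Adam8 and Cd44). Their windows, 250 bases before to 50 after the start, were searched on both strands for TGANTCA (the AP-1 site, bound by Fos and Jun proteins), GGAAAA (the NFAT core), GGAAGT (the ETS site of PU.1), TCATGTG (the MITF site) and an NF-κB site (GGGA and CC with any 4 bases between). Among the 32851 promoters of the table, 7.81% held the AP-1 letters, 23.4% the NFAT core, 23.8% the ETS letters, 3.77% the MITF letters and 20.7% the NF-κB letters. In the 6 members with a window, the 1 match was the GGAAAA of Cd44, at bases -205 to -200 from the start, on the strand of the gene. A match is a description of the letters only.

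Dcstamp, Ocstamp and Tm4sf19 were the 3 members that RANKL raised, and PRDX1 lowered all 3 when it was given with RANKL. A gene was called higher or lower where its Benjamini-Hochberg adjusted p from limma was under 0.05 and its change was at least 1.5-fold, both on log2(FPKM + 1), a scale that understates the change of low genes. By this rule RANKL without PRDX1 raised 3 of the 9 members and lowered 2 (Cd81 and Adam8), where 11.8% of all genes tested were called higher and 9.96% lower (21.8% in all). PRDX1 with RANKL lowered 3 members and raised 1 (Adam8), against 4.17% of all genes lower and 6.03% higher (10.2% in all). The median log2 change of the 9 members was 0.16 by RANKL and 0.16 by PRDX1 with RANKL, beside 0.10 and -0.06 over all genes tested. The libraries with RANKL alone enter both comparisons, and the values of each gene are therefore given side by side and not related to each other.

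Dcstamp encodes DC-STAMP, the multi-pass membrane protein without which osteoclasts stay mononuclear. In mm10 its place is chromosome 15, 39745930 to 39760938 (plus strand), and it was counted on transcript NM_001289508 (1825 bases, 4 exons). Its level was 1.72 and 1.55 FPKM with neither ligand, 4.42 and 3.49 FPKM with PRDX1 alone, 47.2 and 41.4 FPKM with RANKL alone, and 7.96 and 7.89 FPKM with both. The 4 groups did not overlap, and both libraries with RANKL alone stood far above the other 6. RANKL without PRDX1 raised the mean from 1.63 ± 0.123 to 44.3 ± 4.12 FPKM (SD, n = 2), a 27.1-fold difference of means (log2 change 4.10, SE 0.10; limma adjusted p = 5.06e-10). With RANKL present, PRDX1 lowered it 5.59-fold, to 7.93 ± 0.0495 FPKM (log2 change -2.34, SE 0.10; limma adjusted p = 9.07e-08). Without RANKL the direction of the PRDX1 effect was the opposite, from 1.63 to 3.96 ± 0.658 FPKM (log2 change 0.91, SE 0.10; limma adjusted p = 1.20e-04). In rank, Dcstamp moved from the 13.5 and 12.1 percentiles of the genes tested with neither ligand to 85.2 and 82.5 with RANKL alone, and stood at 40.2 and 39.8 with both.

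**Figure D1:**
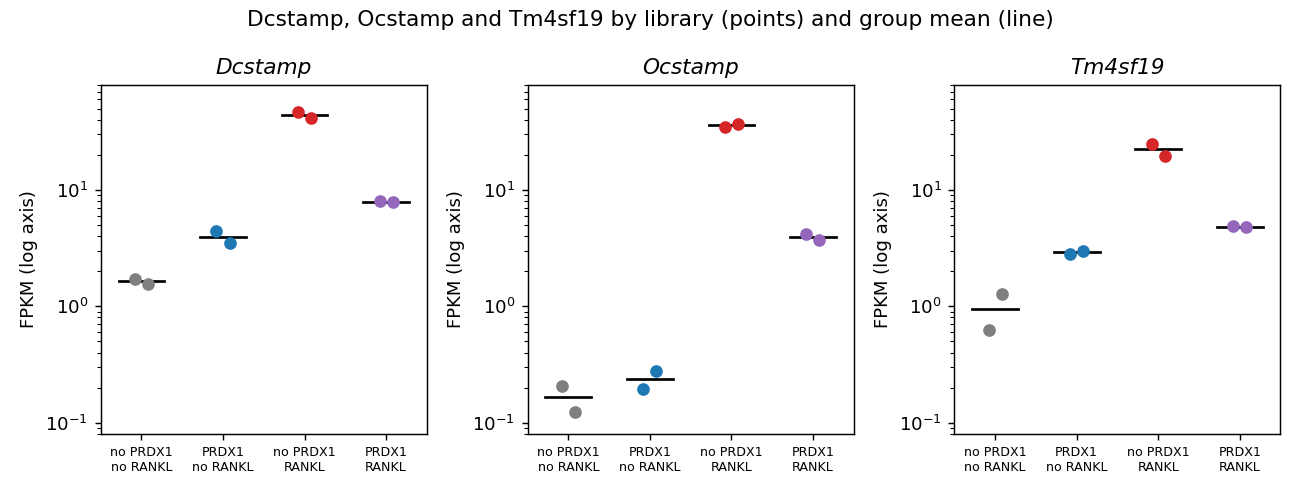
Level of Dcstamp, Ocstamp and Tm4sf19 (FPKM, log axis) in each library (points) of the 4 groups, with the group mean (line). The 2 libraries with RANKL alone are the highest for each gene, at 41.4 to 47.2 FPKM for Dcstamp, 34.7 to 37.1 FPKM for Ocstamp and 19.7 to 24.9 FPKM for Tm4sf19, and the libraries with both ligands lie between these and the libraries without RANKL.

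Ocstamp encodes OC-STAMP, a relative of DC-STAMP that is also needed for osteoclast fusion. The gene lies on chromosome 2, from 165395450 to 165400394 on the minus strand (NM_029021, 1951 bases, 3 exons). It was close to absent without RANKL, at 0.208 and 0.123 FPKM with neither ligand and 0.196 and 0.276 FPKM with PRDX1 alone, which stand for 10 to 19 reads. RANKL alone gave 34.7 and 37.1 FPKM, and both ligands gave 4.16 and 3.73 FPKM. The RANKL libraries stood apart from the others, and the groups without RANKL overlapped. RANKL raised the mean 217-fold, to 35.9 ± 1.68 FPKM (SD, n = 2). On log2(FPKM + 1) this was a change of 4.99 (SE 0.09; limma adjusted p = 8.74e-11), and with a pseudocount of 0.1 the same change was 7.10. PRDX1 lowered the RANKL level 9.10-fold, to 3.95 ± 0.308 FPKM (log2 change -2.90; limma adjusted p = 1.33e-08). A PRDX1 effect without RANKL was not detectable at this depth (log2 change 0.08, 95% interval -0.12 to 0.29; limma adjusted p = 0.537). The log2(FPKM + 1) scale compresses differences between levels this low, so the interval does not bound the fold of the FPKM.

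Tm4sf19 encodes a small protein of the L6 family, which crosses the membrane several times and is found in osteoclasts. The gene lies on chromosome 16, from 32400506 to 32408227 on the plus strand (NM_001160402, 1250 bases, 5 exons), directly after the sequence printed above. It measured 0.621 and 1.28 FPKM with neither ligand, 2.83 and 3.01 FPKM with PRDX1 alone, 24.9 and 19.7 FPKM with RANKL alone, and 4.89 and 4.77 FPKM with both. The 4 groups did not overlap and followed the order seen for Dcstamp. RANKL raised the mean 23.4-fold, from 0.952 ± 0.468 to 22.3 ± 3.68 FPKM (log2 change 3.59, SE 0.15; limma adjusted p = 2.41e-08). With RANKL, PRDX1 lowered it 4.62-fold, to 4.83 ± 0.0820 FPKM (log2 change -1.99; limma adjusted p = 4.75e-06). Without RANKL, PRDX1 raised it 3.07-fold, to 2.92 ± 0.127 FPKM (log2 change 1.03; limma adjusted p = 7.71e-04). The libraries with neither ligand rest on 23 and 67 reads, and without no PRDX1 + no RANKL replicate 2 the folds of means were 35.9 by RANKL and 4.71 by PRDX1.

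The response of these 3 genes to RANKL was smaller when PRDX1 was present, by a test of the difference itself. The log2 change by RANKL was 4.10 without and 0.86 with PRDX1 for Dcstamp, a difference of -3.25 (SE 0.14; limma interaction, adjusted p = 4.51e-07). For Ocstamp it was 4.99 without and 2.0 with PRDX1, a difference of -2.99 (SE 0.13; adjusted p = 4.37e-07). For Tm4sf19 it was 3.59 without and 0.57 with PRDX1, a difference of -3.02 (SE 0.22; adjusted p = 1.02e-05). Over all 9 members, this interaction was called lower for 3 and higher for 1 (Cd81), against 4.35% lower and 4.5% higher among all genes tested (8.85% in all). RANKL given with PRDX1 still raised Dcstamp 2.0-fold (limma adjusted p = 1.18e-04) and Ocstamp 16.7-fold (adjusted p = 1.78e-07) over PRDX1 alone. Tm4sf19 stood 1.65-fold above PRDX1 alone by its means, but its log2 change of 0.57 (adjusted p = 0.0136) was under the 1.5-fold limit on that scale. It was past the limit with a pseudocount of 0.1 (0.71), with voom on reads recovered from FPKM (0.74) and without PRDX1 + no RANKL replicate 2 (0.60). These were 2 of the 9 members higher and 0 lower, where 4.52% of all genes were called higher and 3.98% lower (8.5% in all).

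Within a library, Dcstamp and Ocstamp also changed against each other. The ratio of their levels was 1.36 and 1.11 with RANKL alone and 1.91 and 2.12 with both ligands. Without RANKL it was 8.27 and 12.6 with neither ligand and 22.6 and 12.7 with PRDX1 alone. The groups with RANKL did not overlap those without it, and the high ratios rest on 10 to 19 Ocstamp reads a library. The ratios are given as a description, with no test.

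**Figure D2:**
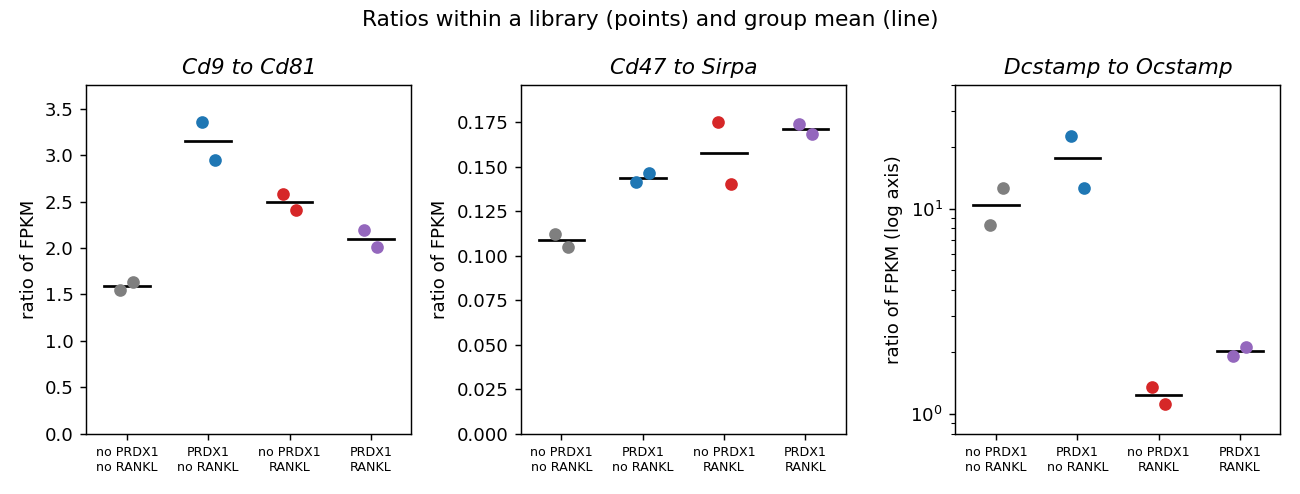
Ratio of the FPKM of a pair of genes within each library (points) and the group mean (line), on linear axes for Cd9 to Cd81 and Cd47 to Sirpa and on a log axis for Dcstamp to Ocstamp. The Cd9 to Cd81 ratio is lowest with neither ligand (1.55 and 1.64), and the Dcstamp to Ocstamp ratio is at most 2.12 in the libraries with RANKL and at least 8.27 in those without.

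The other 6 members were abundant in every group, as macrophage surface genes, and varied by at most 2.66 times between the highest and the lowest of the 8 libraries. The lowest percentile they held among the genes tested was 89.2 (Cd47) and the highest was 99.6 (Adam8). By contrast the highest library exceeded the lowest 30.5 times for Dcstamp, 40.1 times for Tm4sf19 and 302 times for Ocstamp. Among the 6, Cd81 and Adam8 were lowered by RANKL, Adam8 was raised by PRDX1 with RANKL, and Cd47 was higher with both ligands than with neither.

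Cd81, a tetraspanin, was lower in every treated group than with neither ligand. It lies on chromosome 7, from 143052750 to 143067930 on the plus strand (NM_133655, 1508 bases, 8 exons). It measured 177 and 170 FPKM with neither ligand, 81.8 and 82.1 FPKM with PRDX1 alone, 79.9 and 82.5 FPKM with RANKL alone, and 91.4 and 92.1 FPKM with both. The libraries with neither ligand, the only ones labelled with M-CSF, stood alone at the top, and the other 6 lay within 79.9 to 92.1 FPKM. RANKL lowered the mean by 53.3% (log2 change -1.09, SE 0.04; limma adjusted p = 1.66e-08), PRDX1 lowered it by 52.9% (-1.08; adjusted p = 1.67e-07), and both lowered it by 47.2% (-0.91; adjusted p = 1.23e-07). The levels with RANKL alone and PRDX1 alone overlapped, with a log2 difference of -0.01 (95% interval -0.11 to 0.08; limma adjusted p = 0.80). The interaction of the 2 ligands was 1.25 on the log2 scale, so that their effects did not add up (SE 0.06; limma adjusted p = 1.09e-06). PRDX1 without RANKL thus lowered 1 member and raised 2 (Dcstamp and Tm4sf19), against 1.99% of all genes lower and 3.8% higher (5.79% in all). The antisense gene R74862, at 1.39 to 3.66 FPKM, overlaps Cd81, and since reads were counted without regard to strand the reads of both cannot be told apart.

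Cd9, the other tetraspanin among the members, did not pass the fold limit in any comparison. It lies on chromosome 6, from 125460266 to 125494760 on the minus strand (NM_007657, 1187 bases, 8 exons), and overlaps the antisense gene Gm26728. It measured 275 and 279 FPKM with neither ligand, 274 and 242 FPKM with PRDX1 alone, 206 and 198 FPKM with RANKL alone, and 201 and 185 FPKM with both. The libraries with RANKL lay below those without, and the log2 difference by PRDX1 was -0.10 without RANKL (95% interval -0.24 to 0.04; limma adjusted p = 0.252) and -0.07 with it (95% interval -0.21 to 0.07; adjusted p = 0.406). The RANKL difference was -0.45 without PRDX1 (SE 0.06; limma adjusted p = 1.33e-04) and -0.42 with it (adjusted p = 5.40e-04), under 1.5-fold in both. The ratio of Cd9 to Cd81 was 1.59 ± 0.0607 (SD, n = 2) with neither ligand, 3.15 ± 0.285 with PRDX1 alone, 2.49 ± 0.121 with RANKL alone and 2.10 ± 0.132 with both. The 4 groups did not overlap in this ratio.

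**Figure D3:**
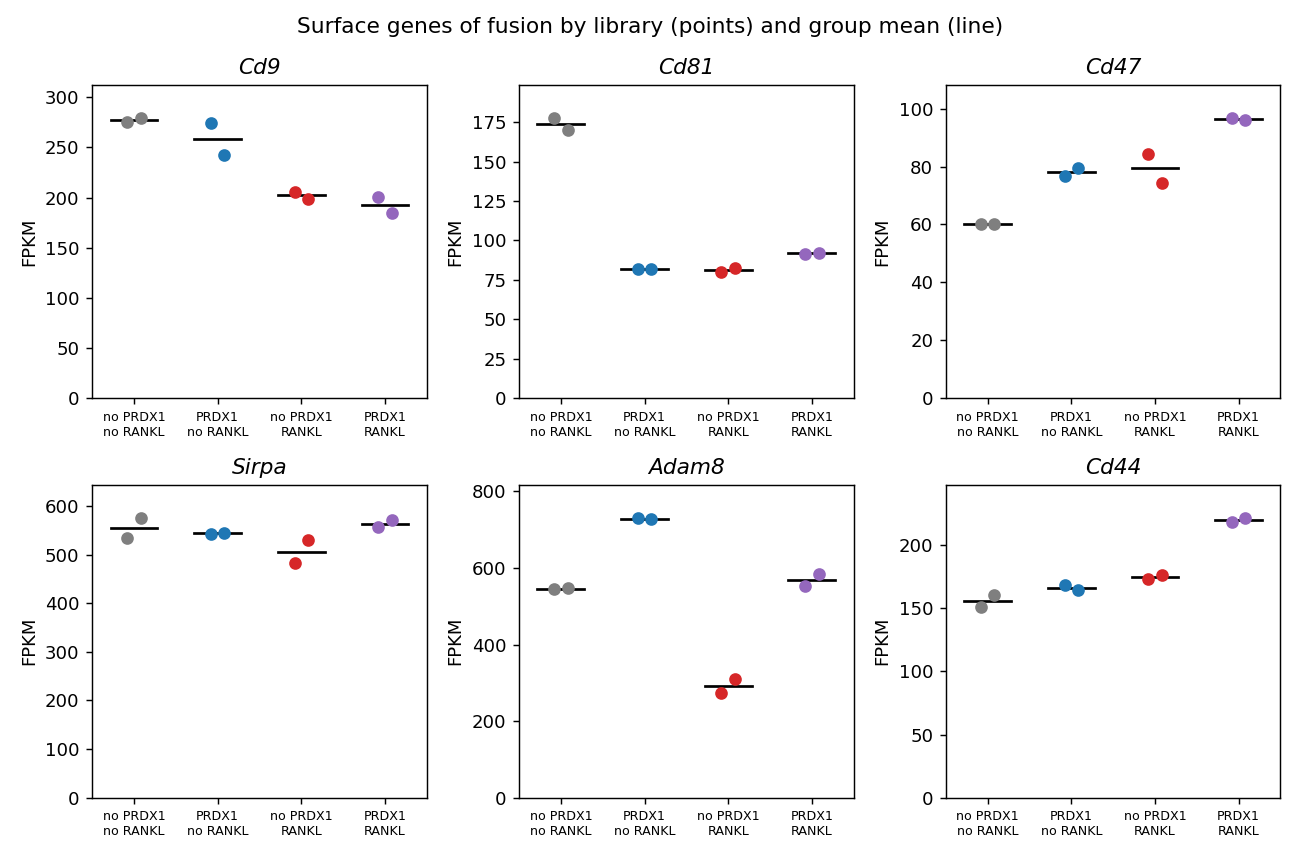
Level of the 6 abundant members (FPKM, linear axes from 0) in each library (points) of the 4 groups, with the group mean (line). Cd81 is highest in the libraries with neither ligand (170 to 177 FPKM), Adam8 is lowest with RANKL alone (275 to 309 FPKM), and Cd47 and Cd44 are highest with both ligands.

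Adam8 encodes a metalloprotease-disintegrin of the surface of myeloid cells and osteoclasts. It lies on chromosome 7, from 139978932 to 139992562 on the minus strand (NM_007403, 3091 bases, 24 exons), and overlaps the antisense gene Gm16201. It measured 544 and 548 FPKM with neither ligand, 730 and 727 FPKM with PRDX1 alone, 275 and 309 FPKM with RANKL alone, and 553 and 585 FPKM with both. The libraries with RANKL alone were the lowest and those with PRDX1 alone the highest, without overlap. RANKL lowered the mean by 46.5%, from 546 ± 2.83 to 292 ± 24.4 FPKM (log2 change -0.90, SE 0.06; limma adjusted p = 3.73e-07). PRDX1 with RANKL raised it 1.95-fold, to 569 ± 22.7 FPKM (log2 change 0.96; limma adjusted p = 7.42e-07), a level 0.06 from that with neither ligand on the log2 scale (95% interval -0.06 to 0.18). Without RANKL, PRDX1 gave a 1.33-fold difference that was under the limit (log2 change 0.42; limma adjusted p = 4.14e-04). The interaction of 0.55 (SE 0.08; limma adjusted p = 8.16e-04) was also under it, and past it without no PRDX1 + RANKL replicate 2 (0.63) or without PRDX1 + RANKL replicate 1 (0.59).

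Cd47 and Sirpa encode a ligand and its receptor. Cd47 lies on chromosome 16, from 49855654 to 49911683 on the plus strand (NM_010581, 1902 bases, 10 exons), and Sirpa on chromosome 2, from 129595462 to 129632228 on the plus strand (NM_001355160, 3564 bases, 9 exons). Cd47 measured 60.1 and 60.2 FPKM with neither ligand, 76.8 and 79.6 FPKM with PRDX1 alone, 84.2 and 74.5 FPKM with RANKL alone, and 96.6 and 96.2 FPKM with both. The libraries with neither ligand were the lowest, those with both ligands the highest, and the libraries with 1 ligand overlapped each other between them. Against neither ligand, the log2 difference was 0.37 with PRDX1 (limma adjusted p = 0.00111), 0.39 with RANKL (adjusted p = 2.40e-04) and 0.67 with both (SE 0.06; adjusted p = 9.48e-06), of which the last, a 1.60-fold rise of the mean, passed the fold limit. Both ligands against neither raised 4 members (Dcstamp, Ocstamp, Tm4sf19 and Cd47) and lowered 1 (Cd81), against 7.5% of all genes higher and 5.34% lower (12.8% in all).

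Sirpa was the member that varied least, with a highest library 1.19 times the lowest. It measured 534 and 575 FPKM with neither ligand, 543 and 544 FPKM with PRDX1 alone, 482 and 530 FPKM with RANKL alone, and 556 and 571 FPKM with both. The groups with RANKL alone and with both did not overlap, but no comparison passed the fold limit. The log2 difference was 0.16 by PRDX1 with RANKL (95% interval 0.04 to 0.28; limma adjusted p = 0.0392) and -0.13 by RANKL without PRDX1 (95% interval -0.25 to -0.01; adjusted p = 0.0543). Its relatives Sirpb1a, Sirpb1b and Sirpb1c, with which it could share reads, measured 2.65 to 27.9 FPKM. The ratio of Cd47 to Sirpa was 0.109 ± 0.00536 (SD, n = 2) with neither ligand, 0.144 ± 0.00335 with PRDX1 alone, 0.158 ± 0.0244 with RANKL alone and 0.171 ± 0.00371 with both. The libraries with neither ligand, at 0.112 and 0.105, lay below the other 6, while those with RANKL alone overlapped both remaining groups.

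Cd44, the receptor of hyaluronan and of osteopontin, lies on chromosome 2, from 102811142 to 102901665 on the minus strand (NM_001039151, 4397 bases, 9 exons). It measured 151 and 160 FPKM with neither ligand, 168 and 164 FPKM with PRDX1 alone, 173 and 176 FPKM with RANKL alone, and 218 and 221 FPKM with both. The libraries with both ligands were the highest and the other 6 lay within 151 to 176 FPKM. No comparison passed the fold limit. The log2 difference was 0.33 by PRDX1 with RANKL (SE 0.04; limma adjusted p = 2.05e-04), 0.16 by RANKL without PRDX1 (adjusted p = 0.00841) and 0.49 for both against neither (adjusted p = 1.03e-05), the last a 1.41-fold difference of means. The interaction was 0.24 (SE 0.06; limma adjusted p = 0.0209).

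**Figure D4:**
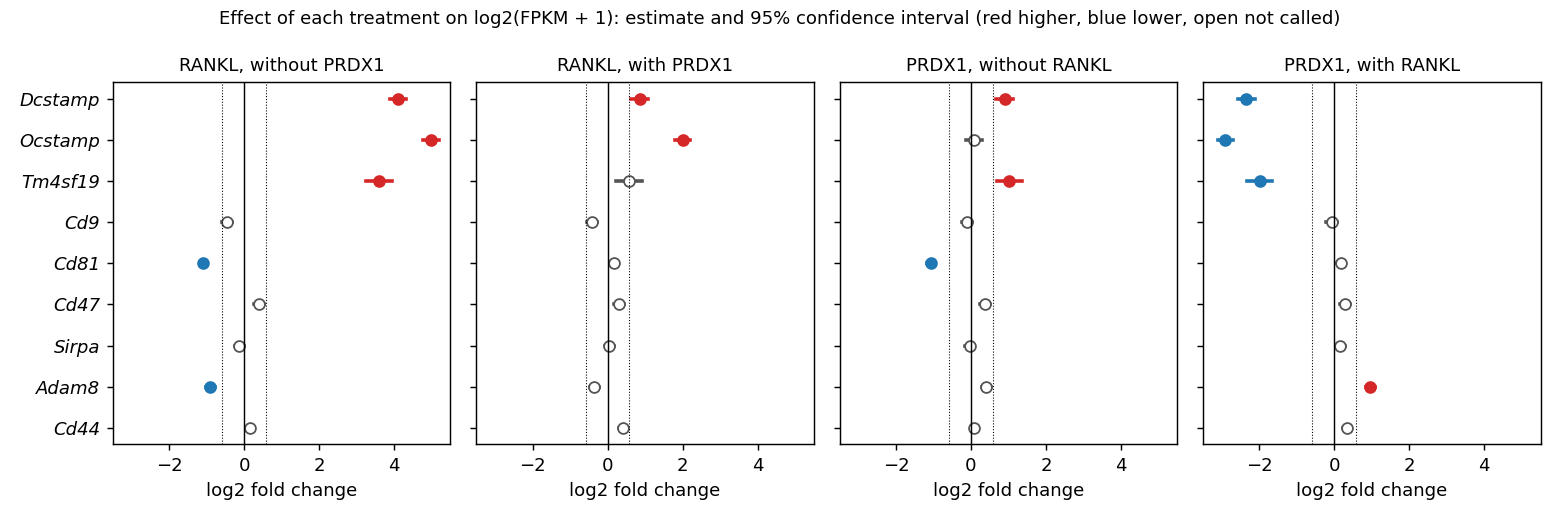
Log2 fold change of the 9 members on log2(FPKM + 1), with its 95% confidence interval, for each ligand without and with the other. Red points were called higher, blue points lower and open points were not called; dotted lines mark a 1.5-fold change. Dcstamp, Ocstamp and Tm4sf19 lie at 3.59 to 4.99 by RANKL without PRDX1 and at -2.90 to -1.99 by PRDX1 with RANKL.

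RANKL alone against PRDX1 alone raised 3 members (Dcstamp 11.2-fold, Ocstamp 152-fold and Tm4sf19 7.64-fold) and lowered Adam8 (log2 change -1.32; limma adjusted p = 2.08e-08), where 14.3% of all genes were called higher and 10.7% lower (25.1% in all). The sum of the 9 members was lowest with RANKL alone, at 1406 and 1469 FPKM, against 1733 to 1881 FPKM in the other 6 libraries, and Sirpa and Adam8 made up most of it.

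Other genes with a known part in fusion moved in both directions. Of 32 such genes, 28 were tested; RANKL raised 11 and lowered 8 (median log2 change -0.01, beside 0.10 over all genes tested, with 11.8% raised and 9.96% lowered), and PRDX1 with RANKL raised 6 and lowered 10 (median -0.05, beside -0.06, with 6.03% raised and 4.17% lowered). Src, a tyrosine kinase that osteoclasts need to resorb bone, measured 0.698 and 0.798 FPKM with neither ligand and 37.6 and 41.3 FPKM with RANKL alone (log2 change 4.53; limma adjusted p = 3.92e-11). With both ligands it stood at 14.4 and 14.0 FPKM (log2 change by PRDX1 -1.41; limma adjusted p = 4.13e-07). Atp6v0d2, a proton pump subunit needed for fusion, measured 6.96 and 7.02 FPKM with neither ligand, 24.5 and 21.0 FPKM with PRDX1 alone, 186 and 168 FPKM with RANKL alone and 27.3 and 25.5 FPKM with both. These are log2 changes of 4.47 by RANKL (limma adjusted p = 7.30e-11) and -2.69 by PRDX1 with RANKL (adjusted p = 1.01e-08). Against PRDX1 alone, the level of Atp6v0d2 with both ligands was 0.21 higher on the log2 scale and did not pass the test (limma adjusted p = 0.0577). Siglec15, a sialic acid receptor that signals through DAP12, passed the filter on low values only through the groups with RANKL. It rose from 0.088 and 0.227 FPKM to 13.2 and 13.4 FPKM with RANKL (log2 change 3.63; limma adjusted p = 1.01e-08) and was at 0.851 and 1.38 FPKM with both ligands (-2.77; adjusted p = 2.54e-07). Itgb3, the β3 integrin, measured 20.5 and 22.8 FPKM with RANKL alone and 1.53 and 1.59 FPKM with both (log2 change -3.15; limma adjusted p = 9.04e-09). These 4 genes were named for the largest changes in the list, so they do not stand for the list. The 6 genes that PRDX1 raised with RANKL were Ccl2 (log2 change 1.85), Cd200r1 (1.70), Cd36 (1.61), Slc3a2 (0.998), P2rx7 (0.72) and Trem2 (0.68). PRDX1 without RANKL raised 5 of the 28 genes of this list and lowered 3, beside 3.8% and 1.99% of all genes, with Atp6v0d2 at a log2 change of 1.57 (limma adjusted p = 6.31e-07), Src at 4.13 and 4.19 FPKM (log2 change 1.56; limma adjusted p = 4.32e-07) and Itgb3 at 0.714 and 0.610 FPKM (-0.79; adjusted p = 1.32e-04).

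Another list held genes whose products bind or process the members. Of 18 partners, 17 were tested; RANKL raised 4 and lowered 3 (median log2 change -0.14, beside 11.8% raised, 9.96% lowered and a median of 0.10 over all genes), and PRDX1 with RANKL raised 2 and lowered 2 (median 0.02, beside 6.03%, 4.17% and -0.06). Mmp14, a membrane protease that can cut CD44, measured 1.02 and 0.771 FPKM with neither ligand, 13.1 and 14.3 FPKM with PRDX1 alone, 69.3 and 75.8 FPKM with RANKL alone and 32.3 and 34.9 FPKM with both. Its log2 change was 5.28 by RANKL (limma adjusted p = 3.26e-11) and -1.09 by PRDX1 with RANKL (adjusted p = 4.66e-06). Spp1 (osteopontin), a ligand of CD44, went the other way: RANKL lowered it from 1988 and 2050 FPKM to 364 and 344 FPKM (log2 change -2.51; limma adjusted p = 9.25e-11), and with both ligands it was at 828 and 801 FPKM (1.20; adjusted p = 4.76e-08). Ptgfrn, which binds CD9 and CD81, rose from 0.567 and 0.584 FPKM to 2.19 and 2.52 FPKM with RANKL (log2 change 1.09; limma adjusted p = 4.22e-05). With both ligands Ptgfrn was at 0.773 and 1.23 FPKM (log2 change by PRDX1 -0.75, limma adjusted p = 0.0010). Thbs1, a ligand of CD47, was at 2.77 and 2.43 FPKM with RANKL alone and 4.65 and 6.09 FPKM with both (log2 change 0.81; limma adjusted p = 8.03e-04).

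Of 29 other tetraspanins, 15 were tested; RANKL raised 2 and lowered 2 (median log2 change -0.31), and PRDX1 with RANKL raised 1 and lowered 1 (median 0.07). Over all genes tested RANKL raised 11.8% and lowered 9.96% (median 0.10), and PRDX1 with RANKL raised 6.03% and lowered 4.17% (median -0.06), and the counts of this list were near these shares. Cd82 rose from 15.9 and 16.3 FPKM to 61.9 and 66.2 FPKM with RANKL (log2 change 1.93; limma adjusted p = 3.19e-09) and was at 39.3 and 40.3 FPKM with both (-0.67; adjusted p = 1.63e-05). Cd53, a tetraspanin of leukocytes, fell from 169 and 161 FPKM to 75.5 and 68.9 FPKM with RANKL (log2 change -1.18; limma adjusted p = 3.99e-08) and was at 123 and 119 FPKM with both (0.74; adjusted p = 3.39e-06). Cd53 thus moved as Adam8 did, and Cd82 in the opposite direction. Tspan13 fell from 3.49 and 3.75 FPKM to 1.51 and 1.86 FPKM with RANKL (log2 change -0.79; limma adjusted p = 2.23e-04).

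Of 15 relatives of Tm4sf19, Sirpa and Adam8 (L6, SIRP and ADAM genes), 10 were tested; RANKL raised 4 and lowered 2 (median log2 change -0.10), and PRDX1 with RANKL raised 2 and lowered 0 (median 0.24), beside the same shares of all genes. The 2 raised genes, Adam15 and Adam33, were reduced to 1 when no PRDX1 + RANKL replicate 1 or either library with both ligands was left out. Adam15 fell from 137 and 144 FPKM to 63.3 and 69.5 FPKM with RANKL (log2 change -1.07; limma adjusted p = 8.01e-08) and was at 99.7 and 103 FPKM with both (0.60; adjusted p = 1.32e-05). Adam33 fell from 2.75 and 3.11 FPKM to 0.717 and 0.727 FPKM (log2 change -1.19; limma adjusted p = 2.28e-06) and was at 1.67 and 1.56 FPKM with both (0.60; adjusted p = 5.89e-04). Both followed the direction of Adam8, and both were named because they were called. Adam9, Adam10, Adam17 and Adam19 were not called in either comparison. Sirpb1c rose from 8.39 and 7.19 FPKM to 23.3 and 18.4 FPKM with RANKL (log2 change 1.31; limma adjusted p = 3.51e-06), while Sirpa did not pass the limit. PRDX1 alone also raised Sirpb1c, to 24.5 and 27.9 FPKM (log2 change 1.63, limma adjusted p = 4.64e-06).

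All 15 transcription factors of the fusion program were tested; RANKL raised 6 and lowered 3 (median log2 change 0.31, beside 0.10 over all genes, with 11.8% raised and 9.96% lowered), and PRDX1 with RANKL raised 5 and lowered 3 (median 0.10, beside -0.06, with 6.03% raised and 4.17% lowered). Leaving out no PRDX1 + RANKL replicate 1 gave a count of 2 raised genes, leaving out PRDX1 + RANKL replicate 2 gave 3, and the RANKL median was 0.11 once no PRDX1 + RANKL replicate 2 was left out. Nfatc1, the main regulator of osteoclast genes and an activator of Dcstamp, measured 9.54 and 11.1 FPKM with neither ligand, 50.3 and 55.4 FPKM with RANKL alone and 15.6 and 15.7 FPKM with both (log2 change by PRDX1 -1.69; limma adjusted p = 1.30e-07). Fos, an AP-1 subunit, rose from 13.8 and 13.8 FPKM to 117 and 127 FPKM with RANKL (log2 change 3.06; limma adjusted p = 4.26e-10), and was at 128 and 139 FPKM with both, with a log2 difference of 0.13 by PRDX1 that did not pass the test (limma adjusted p = 0.182). PRDX1 without RANKL raised Fos to 44.5 and 38.8 FPKM (log2 change 1.52; limma adjusted p = 4.26e-07), and the interaction was -1.40 (adjusted p = 1.12e-05). Prdm1, a repressor of the inhibitors of osteoclast genes, rose from 1.02 and 1.08 FPKM to 9.18 and 9.07 FPKM (log2 change 2.31; limma adjusted p = 1.39e-08) and was at 1.61 and 1.81 FPKM with both (-1.90; adjusted p = 1.91e-07). Fosl2, another AP-1 subunit, measured 33.7 and 34.0 FPKM with RANKL alone and 10.2 and 10.1 FPKM with both (log2 change -1.64; limma adjusted p = 5.34e-08). Irf8, an inhibitor of osteoclast genes, fell from 47.8 and 50.3 FPKM to 7.77 and 7.72 FPKM with RANKL (log2 change -2.52; limma adjusted p = 2.66e-10) and was at 23.9 and 25.4 FPKM with both (1.55; adjusted p = 2.72e-08). Nfatc1, Prdm1 and Fosl2 were thus lower with both ligands than with RANKL alone, as Dcstamp, Ocstamp and Tm4sf19 were, and Irf8 was higher.

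**Figure D5:**
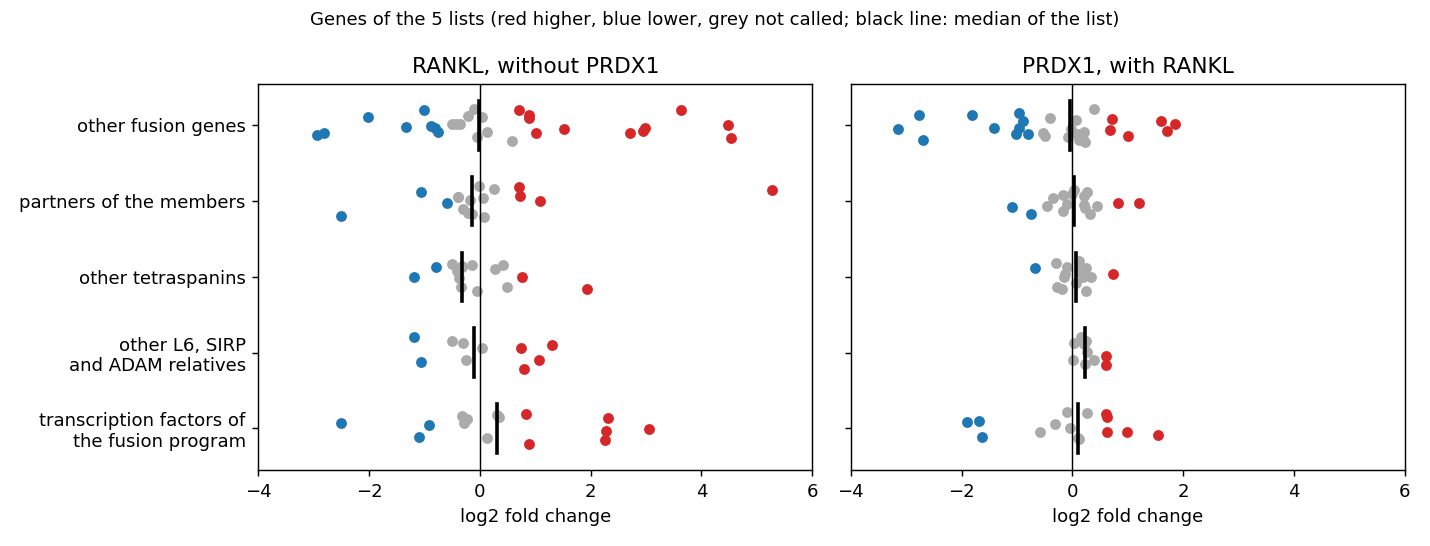
Log2 fold change on log2(FPKM + 1) of each tested gene (points) of the 5 lists, by RANKL without PRDX1 (left) and by PRDX1 with RANKL (right), with the median of the list (black line). Red points were called higher, blue lower and grey were not called; medians lie between -0.31 and 0.31 while single genes reach 5.28 (Mmp14) and -3.15 (Itgb3).

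The genes whose pattern over the 8 libraries was most like that of a member were named by Pearson correlation of log2(FPKM + 1), among 3889 genes tested whose group means spanned at least 1.5-fold. The libraries fall into 4 treatment groups, so these values describe likeness of the group levels. For Dcstamp they were Rai14 (r = 0.998) and Ppic (0.9975), for Ocstamp Ctsk (0.9994), the collagen-cleaving protease of osteoclasts, and Jdp2 (0.9991), and for Tm4sf19 Cttn (0.9965) and Snx10 (0.9928). For Cd9 they were H2-DMa (0.9797) and Fcgrt (0.9661), for Cd81 Mmd (0.9826) and Atp2a3 (0.9787), for Cd47 Epsti1 (0.9828) and Samd9l (0.9818), for Adam8 Nisch (0.9965) and Marcksl1 (0.9959), and for Cd44 Cspg4 (0.9913) and Stim2 (0.9882). Sirpa, which varied least, had the lowest values, with Abca1 at 0.8886 and Slc8b1 at 0.8655.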

How the data were processed

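Osteoclast precursor cells were measured by paired-end RNA-seq in 8 libraries, grouped by the labels' titles. Per the labels and the header of the table, the authors aligned reads with HISAT2, counted them with HOMER over RefSeq exons (mm10), on both strands and with 1 transcript kept per gene, and deposited FPKM; the submitters' notes also name DESeq2. No version is given in the sources used here. The table had 0 other columns of per-sample values.

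Reads were recovered from FPKM and transcript length: in each library 99.985% to 100% of the low genes examined came out whole (within 0.1), and the depth was 24542578 to 41712973 reads on genes. Intervals cover the spread between libraries only.

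log2(FPKM + 1) of 11700 genes with a mean of at least 0.5 FPKM was fitted in one limma 3.58.1 model of the 4 groups (R 4.3.3, intensity trend, 4 residual degrees of freedom). Calls needed a Benjamini-Hochberg adjusted p under 0.05 over all genes and a 1.5-fold change, the study's thresholds. The fit was tested on simulated data. The members and the 5 gene lists were chosen with earlier results of these data known. The genes named are the 9 members, up to 3 called genes a list with the largest change by RANKL and by PRDX1 with RANKL, and the 2 genes most like each member. The alternatives were a pseudocount of 0.1, no filter or one at 1 FPKM, quantile and upper quartile scaling, no trend, voom on recovered reads, the replicate block and leaving out each library. Replicates differed by more than sampling noise (chi-square per degree of freedom 4.588 to 9.193), so none was counted as a repeat deposit.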

Additional observations from a re-analysis of the deposited data

Results flagged for a closer look

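The interaction of PRDX1 and RANKL in the limma model across all genes passed both the adjusted p and the 1.5-fold limit for 4 of the 9 genes, where 8.85% of all genes tested passed both. Adam8 (0.55; adjusted p = 8.16e-04) and Cd44 (0.24; adjusted p = 0.0209) were under the fold limit. On the log2 scale the RANKL effect was lower with PRDX1 by -3.25 for Dcstamp (adjusted p = 4.51e-07), by -2.99 for Ocstamp (adjusted p = 4.37e-07) and by -3.02 for Tm4sf19 (adjusted p = 1.02e-05). In all 3, both libraries with both ligands lay below both libraries with RANKL alone. These 2 groups did not overlap for 8 of the 9 genes, so the lack of overlap does not set the 3 apart. The share over all genes is not given here. For Cd81 the difference was 1.25 (adjusted p = 1.09e-06), since each ligand alone lowered the gene and the second ligand did not lower it further.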

How the results depend on the processing

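Over 16 alternatives, of the log2 changes of the 9 genes in 7 comparisons, 988 values kept their direction and side of the threshold, 5 passed the threshold only under an alternative (Tm4sf19 by RANKL with PRDX1, and the interaction of Adam8) and 15 changed sign, none of them a called change. Under quantile scaling the values that changed sign were -0.039 for Ocstamp by PRDX1 without RANKL and, for RANKL alone against PRDX1 alone, -0.082 for Cd47 and -0.040 for Cd44. Under upper quartile scaling they were -0.085 for Cd47 and -0.032 for Cd44 in that comparison, and for Sirpa 0.010 by PRDX1 without RANKL and -0.0042 by RANKL with PRDX1, and with voom 0.0082 for Cd81 (RANKL alone against PRDX1 alone). With a library left out, the ranges that crossed 0 were -0.080 to 0.025 for Sirpa by PRDX1 without RANKL, -0.029 to 0.075 for Sirpa with both against neither, -0.036 to 0.0094 for Cd81 and -0.070 to 0.11 for Cd47 with RANKL alone against PRDX1 alone, and -0.055 to 0.12 for the interaction of Cd9. The count of members with a higher interaction was 1, or 2 without no PRDX1 + RANKL replicate 2 or PRDX1 + RANKL replicate 1. The size of the change of low genes depended on the scale: the RANKL effect on Ocstamp was 4.99, 7.10 with a pseudocount of 0.1 and 7.81 with voom, that on Tm4sf19 was 3.59, 4.48 and 4.55, and that on Dcstamp was 4.10, 4.68 and 4.78.

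The medians of the gene lists, which are near 0, moved more. For other fusion genes the RANKL median was 0.033 without a filter, -0.071 by quantile scaling, -0.076 by upper quartile scaling and -0.021 to 0.046 with a library left out, and the median by PRDX1 with RANKL was 0.015 without a filter, 0.025 by quantile scaling, -0.0022 by upper quartile scaling and -0.059 to -0.016 with a library left out. For partners the RANKL median was -0.081 without a filter or with one at 1 FPKM, -0.19 by quantile and -0.21 by upper quartile scaling and -0.16 to -0.085 with a library left out, and by PRDX1 with RANKL it was 0.11 without a filter, 0.059 by quantile and 0.068 by upper quartile scaling. For other tetraspanins the RANKL median was -0.049 without a filter, -0.38 by either scaling and -0.33 to -0.16 with a library left out; voom called 4 lower by RANKL, and 2 were lower by PRDX1 with RANKL without a filter. For L6, SIRP and ADAM relatives the RANKL median was 0.017 without a filter and -0.16 to 0.031 with a library left out; 1 was higher by PRDX1 with RANKL under quantile scaling, and 1 to 2 with a library left out. For transcription factors the RANKL median was 0.11 to 0.38, and 2 to 5 were higher by PRDX1 with RANKL, with a library left out. The cause was not tested, except that the filter changes which genes are counted.

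The replicate numbers pair nothing in the labels, and the directory names in the header of the table carry other numbers than the titles, whose numbers were used. Deviations of libraries with the same number correlated at 0.00847 to 0.0965. With the replicate number as a block, RANKL without PRDX1 still raised 3 members and lowered 2, and the member counts of the other 6 comparisons were also those without it. With 2 libraries a group, leaving 1 out leaves a lone library that is assumed to vary like the others. Depth limits Ocstamp without RANKL (10 to 19 reads).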
